A study of Mus musculus with 6 samples.

Results

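The 10 genes described here belong to the ATF4 and endoplasmic reticulum (ER) stress response: Atf4, Ddit3, Trib3, Asns, Chac1, Sesn2, Xbp1, Hspa5, Herpud1 and Dnajb9. They were chosen by symbol, which the files write in capitals (ATF4, DDIT3, TRIB3, ASNS, CHAC1, SESN2, XBP1, HSPA5, HERPUD1 and DNAJB9), from 23282 gene rows. All 10 were detected in every library, and all 10 were among the 11712 genes that passed the filter on low counts. The RNA came from mouse astrocytes of an Ink4a/Arf-/- line, which lacks the Ink4a/Arf tumor suppressor locus. Control cells (3 libraries) carried pcDNA3.1-puro, an empty vector brought in by transfection, and JAG1-overexpressing cells (3 libraries) carried pcDNA3.1-JAG1-puro, which encodes the NOTCH ligand JAG1. Cells of both groups were grown in DMEM with fetal bovine serum, glutamine and antibiotics, and no ER stressor or amino acid withdrawal was named for either group. WT, the genotype label of the controls, was read here as without JAG1, since every library is labelled as the Ink4a-/- line. The promoter of the vector in these cells, the time after transfection, any selection and the number of separate transfections behind the 3 libraries are not given in the sources used here, so that the spread between libraries may be technical.

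Unfolded proteins in the ER are sensed by 3 membrane proteins, PERK (encoded by Eif2ak3), IRE1 (encoded by Ern1) and ATF6, and the gene program they start is the unfolded protein response. PERK phosphorylates the translation factor eIF2α, as do the kinases that sense amino acid shortage, heme shortage and double-stranded RNA, and the shared outcome, the integrated stress response, lowers general protein synthesis while ATF4 is translated more. ATF4 activates genes of amino acid supply, redox balance and cell death. IRE1 splices the mRNA of Xbp1, and spliced XBP1 and cleaved ATF6 activate chaperones and the machinery that removes misfolded proteins from the ER. Since ATF4 is controlled largely in translation and XBP1 by splicing, neither step is seen in a count of mRNA.

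Libraries were made with the QuantSeq 3′ kit, which reads near the 3′ end of polyadenylated RNA. Counts therefore do not rise with transcript length, and levels were compared between genes without a correction for length. Other differences between genes in how their tags are counted were not tested. The control libraries held 20489062, 18889751 and 18952552 counts, and the JAG1-overexpressing libraries held 20071276, 14341634 and 16442278. Levels are given as CPM, the counts of a gene scaled to a TMM-normalized library of 1e6 counts. The detection floor was set at 3 counts, which is 0.148 CPM in the deepest and 0.206 CPM in the shallowest library and covers counting error only. A gene is called higher or lower in JAG1-overexpressing cells where the adjusted p of edgeR's quasi-likelihood test is under 0.05. Fold changes are JAG1-overexpressing over control, on the log2 scale, with the standard error (SE).

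Jag1 itself, at chr2:137081451-137116520, had 182, 201 and 214 counts in the control libraries and 304, 197 and 227 in the JAG1-overexpressing libraries. After normalization the groups did not overlap, with 8.99, 10.8 and 11.2 CPM in control and 15.2, 13.6 and 13.8 CPM in JAG1-overexpressing cells (log2 fold change 0.46, SE 0.11, adjusted p = 0.00446). The level was 1.38-fold higher, in size at percentile 63.6 of all tested genes. Counts do not show whether a tag came from the vector or from the gene of the cell, so they do not measure expression from the vector.

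The labelled cell type was checked against its markers. Of 12 astrocyte markers, Gfap, Aqp4, Slc1a3, Slc1a2 and Fabp7 had at most 3 counts in every library of both groups. The most abundant of the 12 was Vim, a filament protein of many cell types, at 3106 CPM in control and 3213 CPM in JAG1-overexpressing cells. Of the 7 astrocyte markers tested, 5 were lower in JAG1-overexpressing cells and 0 were higher, where 27.7% and 27.4% of all tested genes were. Their median was -1.68, the value of Aldoc. The most abundant of those lower were Sox9, from 180.8 to 17.97 CPM, and the gap junction gene Gja1, from 151.1 to 96.69 CPM. The others had few tags. In JAG1-overexpressing libraries Aldh1l1 had 16, 11 and 13 counts, S100b had 10, 2 and 2, and Aldoc had 13, 4 and 11. Their part in the results below was not tested. In bulk RNA, fewer cells of a type and less RNA per cell cannot be told apart.

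Letters that ER stress factors and ATF4 are known to bind were looked for in the promoters, from 250 bases before to 50 bases after the start of transcription, to place the genes by the factors known to act on them. Sequences and positions are those of RefSeq for GRCm38.p6, in which all 10 genes have 1 promoter each. The ER stress response element ERSE (CCAAT, any 9 bases, then CCACG, on either strand) stood in the promoter of Hspa5 and in 0.119% of all 32851 promoters. ERSE-II (ATTGG, any base, then CCACG) stood in that of Herpud1 and in 0.0365% of all promoters. The element shared by C/EBP and ATF4 (TGATGNAA) stood in those of Chac1, Asns, Herpud1 and Trib3 and in 3.97% of all promoters. The core of the unfolded protein response element (TGACGTGG) stood in none of the 10 and in 0.676% of all promoters. The motifs share no site in these promoters. A match describes the letters and does not show binding, and its absence from this window says nothing of the factor. In Trib3 the match (chr2:152344039-152344046, minus-strand gene) lies after the RefSeq start of transcription, at positions 15 to 22 of the transcript, and is not shown. The GENCODE M21 model of Trib3 starts at 152344032, and by that start the match lies before it. The stretches that hold the other matches are shown because Hspa5 and Herpud1 were the genes called higher, while Chac1 and Asns, which both carry the ATF4 element, differed in their response. Each is the strand of the gene, 5′ to 3′, before the RefSeq start of transcription, with the motifs in capitals. The longer GENCODE M21 models of Hspa5 and Asns cover the stretches of these genes, which were therefore cut to 30 bases.
Hspa5, chr2:34772020-34772049, plus strand, ERSE: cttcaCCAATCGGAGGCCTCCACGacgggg
Herpud1, chr8:94386297-94386406, plus strand, C/EBP-ATF element in reverse and then ERSE-II: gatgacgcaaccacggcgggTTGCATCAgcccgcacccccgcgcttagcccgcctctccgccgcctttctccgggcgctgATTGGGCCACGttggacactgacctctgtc
Chac1, chr2:119350997-119351106, plus strand, C/EBP-ATF element in reverse: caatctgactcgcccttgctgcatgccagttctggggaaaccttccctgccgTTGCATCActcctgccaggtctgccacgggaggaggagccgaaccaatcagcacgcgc
Asns, chr6:7693214-7693243, minus strand, C/EBP-ATF element: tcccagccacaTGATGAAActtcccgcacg

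Of the 10 genes, 5 were lower in JAG1-overexpressing cells (Atf4, Ddit3, Trib3, Chac1 and Sesn2), 2 were higher (Hspa5 and Herpud1) and 3 were not called (Asns, Xbp1 and Dnajb9). Of all genes tested, 27.7% were called lower and 27.4% higher, 55.1% in either direction, so that a call by itself was common in this comparison. The median log2 fold change of the 10 was -0.12, and that of all tested genes was 0.0039. Without Atf4, an alternative added after the values were seen, 4 of the other 9 genes were lower and 2 higher. The median of these 9 was -0.00455. Between the groups, 5 of the 10 lay wholly below and 2 wholly above control in JAG1-overexpressing libraries, where 30.9% and 31.1% of all tested genes did so, together 62%. At a fold of at least 1.5, Chac1 and Sesn2 were lower and 0 of the 10 were higher, where 14.6% and 11.9% of all tested genes were past that limit.

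**Figure D1:**
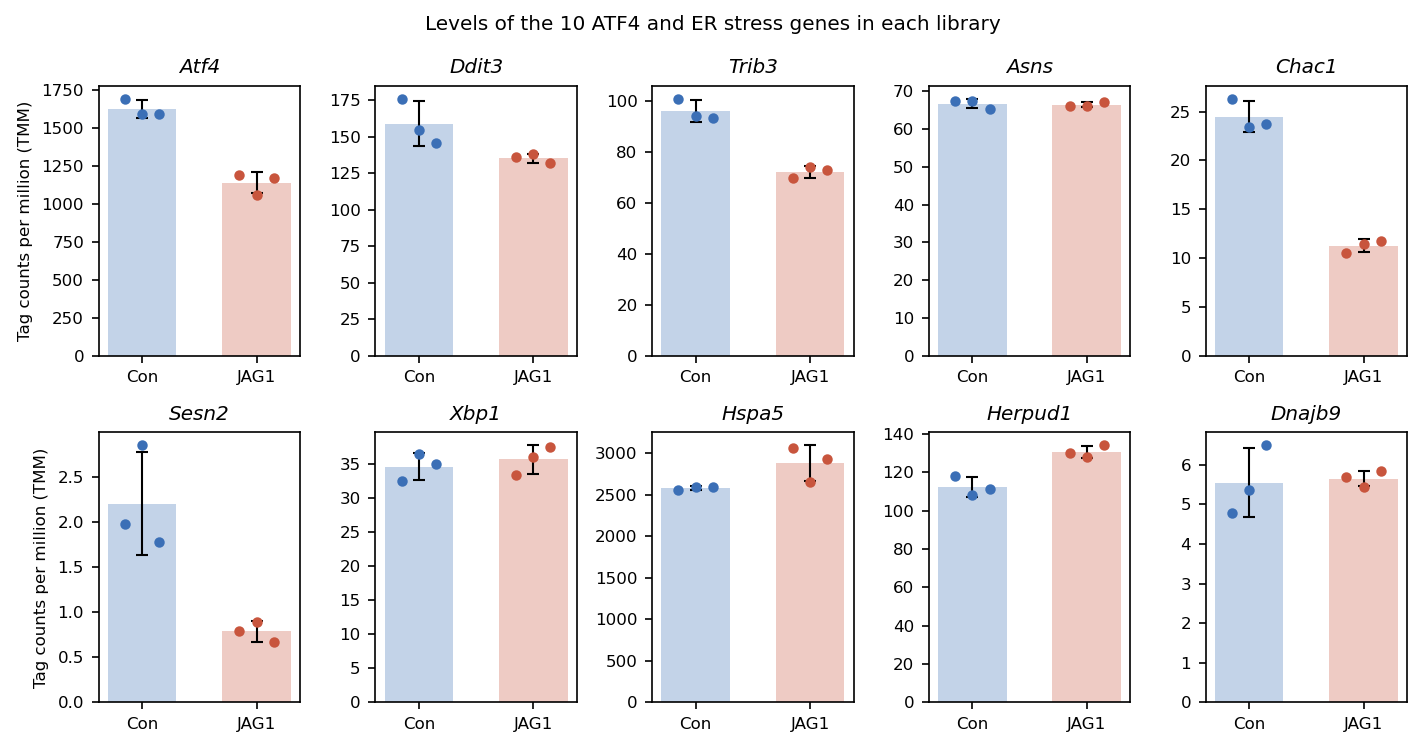
Level of each of the 10 genes in TMM-normalized CPM (linear axis from 0, own scale in each panel), in control (Con) and JAG1-overexpressing (JAG1) libraries. Points are the 3 libraries of a group, bars their mean and error bars the SD. Chac1 went from 24.5 to 11.3 CPM with no overlap, while Asns lay at 66.7 and 66.4 CPM.

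The levels of the 10 genes spread over more than 3 orders of magnitude in CPM. Hspa5 ranked number 19 and Atf4 number 67 among the 11712 tested genes by mean level, so that both were among the genes with the most tags. Ddit3, Herpud1, Trib3 and Asns followed at 66.7 to 158.9 CPM in control cells, then Xbp1 at 34.7 CPM and Chac1 at 24.5 CPM. Dnajb9, at 5.55 CPM, and Sesn2, at 2.20 CPM, were low. Together the 10 genes took between 0.462% and 0.473% of the tags of control libraries and between 0.423% and 0.470% of those of JAG1-overexpressing libraries.

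Atf4 (chr15:80255184-80257545, plus strand) encodes the transcription factor that carries out the integrated stress response. It had 34191, 29593 and 30393 counts in the control libraries and 23802, 15402 and 19183 in the JAG1-overexpressing libraries, which is 1690, 1590 and 1590 CPM against 1190, 1060 and 1170 CPM. Every JAG1-overexpressing library lay below every control library. The level fell by 29.9%, from 1622 ± 57.2 to 1137 ± 67.8 CPM (SD, n = 3 each), with a log2 fold change of -0.51 (SE 0.056, 95% confidence interval -0.64 to -0.39, adjusted p = 1.54e-05).

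The fall of Atf4 was of the same size as the median of its chromosome. On chromosome 15, the median over the 458 other tested genes was -0.53 on the log2 scale, and 75.3% of them were called lower and 6.99% higher. Atf4 stood at percentile 51.7 of that chromosome, 0.02 above its median. Chromosome 19 was shifted the other way, with a median of 0.61 over 422 tested genes, and the medians of the 18 other chromosomes lay between -0.12 and 0.05. No other of the 10 genes is on chromosome 15 or 19. The plot of fold changes beside chromosome medians shows those of the other 9 genes, whose chromosomes had medians between -0.01 and 0.05.

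**Figure D2:**
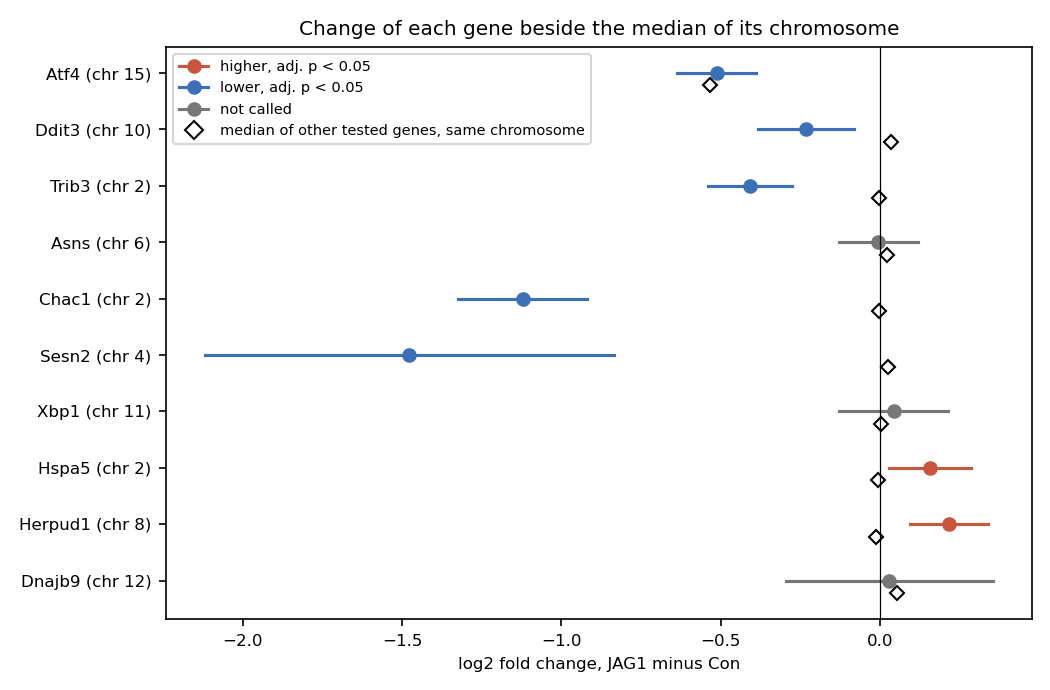
Log2 fold change of each of the 10 genes, JAG1-overexpressing minus control (circles, with 95% confidence intervals, coloured by call), and the median of the other tested genes of the same chromosome (open diamonds). The circle and diamond of Atf4 lie together at -0.51 and -0.53, and those of Chac1 lie at -1.12 and -0.0036.

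**Figure D3:**
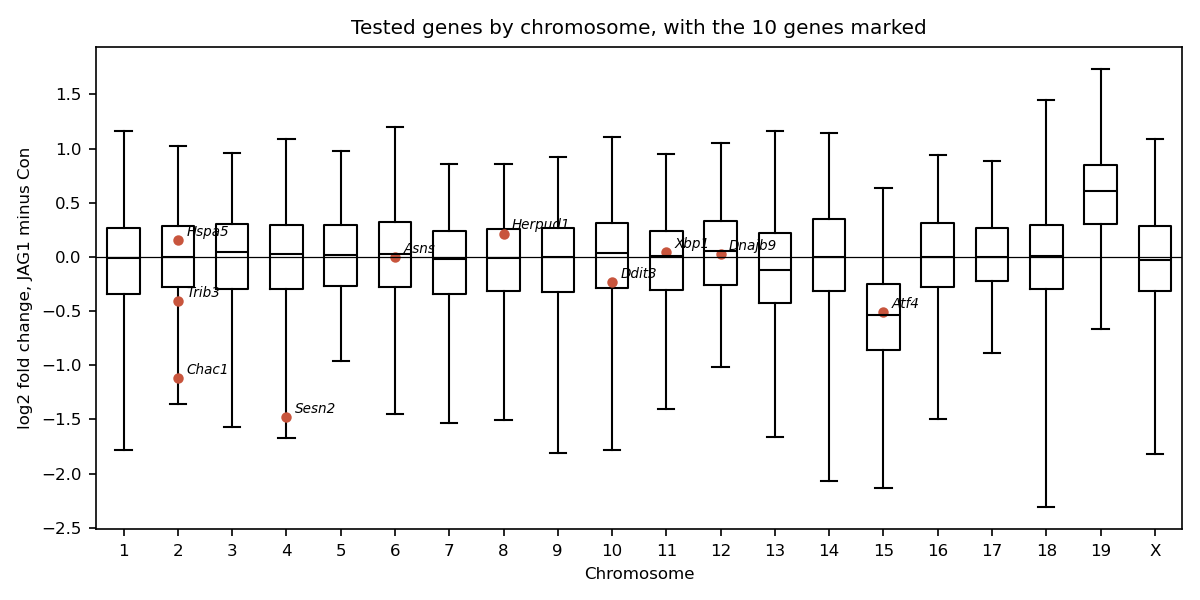
Log2 fold change of all tested genes by chromosome (line, median; box, quartiles; whiskers, 5th to 95th percentile), with the 10 genes as labelled points. The medians are -0.53 on chromosome 15 and 0.61 on chromosome 19, and Atf4 sits on the median line of chromosome 15.

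Ddit3 (chr10:127290793-127296291) encodes CHOP, a transcription factor that ATF4 activates and that promotes cell death in lasting ER stress. The control libraries had 176, 155 and 146 CPM, and the JAG1-overexpressing libraries had 136, 138 and 132 CPM. The groups did not overlap, although the gap between the nearest libraries was smaller than the spread within control cells. The log2 fold change was -0.23 (SE 0.068, adjusted p = 0.0134), and without the third JAG1-overexpressing library it was -0.21 with an adjusted p of 0.0571. The 3′ end of Ddit3 is covered on the opposite strand by Mars, a tRNA synthetase gene with a log2 fold change of -0.17 (SE 0.065, adjusted p = 0.0431), and whether the counting used strand is not given in the sources used here.

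Trib3 (chr2:152337425-152344060) encodes a pseudokinase that ATF4 and CHOP induce and that holds back ATF4 in turn. It had 101, 94.1 and 93.3 CPM in control and 69.8, 74.4 and 73.1 CPM in JAG1-overexpressing libraries. The groups were apart by more than the whole range within either. The level fell by 24.6% (log2 fold change -0.41, SE 0.060, adjusted p = 0.000144).

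Chac1 (chr2:119351242-119354326) encodes an enzyme that degrades glutathione and is among the most inducible targets of ATF4. The control libraries had 532, 436 and 453 counts, or 26.3, 23.4 and 23.7 CPM. The JAG1-overexpressing libraries had 211, 167 and 194 counts, or 10.5, 11.5 and 11.8 CPM. Each JAG1-overexpressing library was under 12 CPM and each control library over 23 CPM. This is a 2.18-fold lower level (log2 fold change -1.12, SE 0.092, 95% confidence interval -1.32 to -0.92, adjusted p = 1.52e-06), and in size it was at percentile 88.0 of all tested genes.

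Sesn2 (chr4:132492804-132510456) encodes a leucine-binding protein that restrains mTORC1 and is induced by ATF4 and p53. It had 40, 53 and 34 counts in control and 16, 13 and 11 counts in JAG1-overexpressing libraries. All values were above the floor of 3 counts and the groups did not overlap. The level was 2.20 ± 0.568 and 0.787 ± 0.114 CPM (SD, n = 3 each), 2.78-fold lower (log2 fold change -1.48, SE 0.29, 95% confidence interval -2.12 to -0.84, adjusted p = 0.00125). With so few tags, this was the least precise of the 10 values.

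Asns (chr6:7675165-7693209) encodes asparagine synthetase, which is induced through ATF4 when amino acids are short. The control libraries had 67.5, 67.3 and 65.2 CPM and the JAG1-overexpressing libraries 66.1, 66.1 and 67.1 CPM. The ranges overlapped almost entirely. The log2 fold change was -0.0045 (SE 0.057, adjusted p = 0.953), and its 95% confidence interval, from -0.13 to 0.12, leaves out changes of the size measured for Trib3, Chac1 or Sesn2.

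Xbp1 (chr11:5520641-5525993) encodes the transcription factor that IRE1 switches on by splicing. It had 32.5, 36.5 and 35 CPM in control and 33.5, 36.1 and 37.6 CPM in JAG1-overexpressing libraries, with overlap. The log2 fold change was 0.04 (95% confidence interval -0.13 to 0.21, adjusted p = 0.659). The spliced and unspliced forms were not separated by these counts.

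Hspa5 (chr2:34772090-34776529) encodes BiP, the main HSP70 chaperone of the ER, which also binds the 3 stress sensors. The control libraries lay close together at 2560, 2600 and 2590 CPM. The JAG1-overexpressing libraries had 3070, 2650 and 2930 CPM, all above control, with the second library close to the highest control library. The log2 fold change was 0.16 (SE 0.058, 95% confidence interval 0.03 to 0.29, adjusted p = 0.0402). The call was lost in 6 of 14 alternative settings, with adjusted p-values up to 0.173 without the first JAG1-overexpressing library and 0.12 without the third.

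Herpud1 (chr8:94386429-94395371) encodes a membrane protein that gathers the ubiquitin ligase complex of ER-associated degradation, and it carries both ERSE-II and the ATF4 element in the stretch printed above. It had 118, 108 and 111 CPM in control and 130, 128 and 134 CPM in JAG1-overexpressing libraries. The groups did not overlap. The rise was 16.1% (log2 fold change 0.22, SE 0.056, adjusted p = 0.00674), and it was past the threshold in all 14 alternative settings.

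Dnajb9 (chr12:44205897-44210068) encodes ERdj4, a J protein that works with BiP and is a target of XBP1. It had 97, 100 and 124 counts in control and 114, 79 and 96 counts in JAG1-overexpressing libraries, or 4.79, 5.37 and 6.49 against 5.68, 5.44 and 5.83 CPM. The JAG1-overexpressing values lay within the control range. The log2 fold change was 0.03 with a wide 95% confidence interval of -0.30 to 0.35 (adjusted p = 0.883).

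The other 9 genes were also set against Atf4 within each library, a ratio that does not depend on library size or normalization. For each 1000 Atf4 tags, control libraries had 1520, 1640 and 1630 tags of Hspa5 and JAG1-overexpressing libraries had 2590, 2500 and 2510. Herpud1 went from 70.2, 67.8 and 70.0 to 110, 120 and 115 tags, and Asns from 40.0, 42.3 and 41.0 to 55.7, 62.4 and 57.6 tags. Chac1 had 15.6, 14.7 and 14.9 tags in control and 8.86, 10.8 and 10.1 in JAG1-overexpressing libraries. In every JAG1-overexpressing library, Hspa5, Herpud1 and Asns had more tags per Atf4 tag than in any control library, and Chac1 had fewer.

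For 8 of the 9 ratios the groups did not overlap, 6 being above control (Ddit3, Asns, Xbp1, Hspa5, Herpud1 and Dnajb9) and 2 below (Chac1 and Sesn2). Of the 11711 other tested genes set against Atf4 in the same way, 79.7% did not overlap, 69.3% being above control and 10.5% below, since Atf4 itself was lower. The 6 above are thus near the share of all genes and say nothing particular of these 6. Trib3 overlapped, with 59.8, 59.2 and 58.7 tags in control and 58.9, 70.2 and 62.8 in JAG1-overexpressing libraries for each 1000 of Atf4. The two-sided exact permutation p of each of the 8 was 0.1, the smallest that 3 against 3 libraries can give, and 0.112 after Benjamini-Hochberg adjustment over the 9 ratios. Trib3 had an exact p of 0.3. The exact permutation test cannot pass 0.05 with these numbers of libraries, no other test was made on the ratios, and all of them share Atf4, whose own fall was within 0.02 of the median of chromosome 15.

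**Figure D4:**
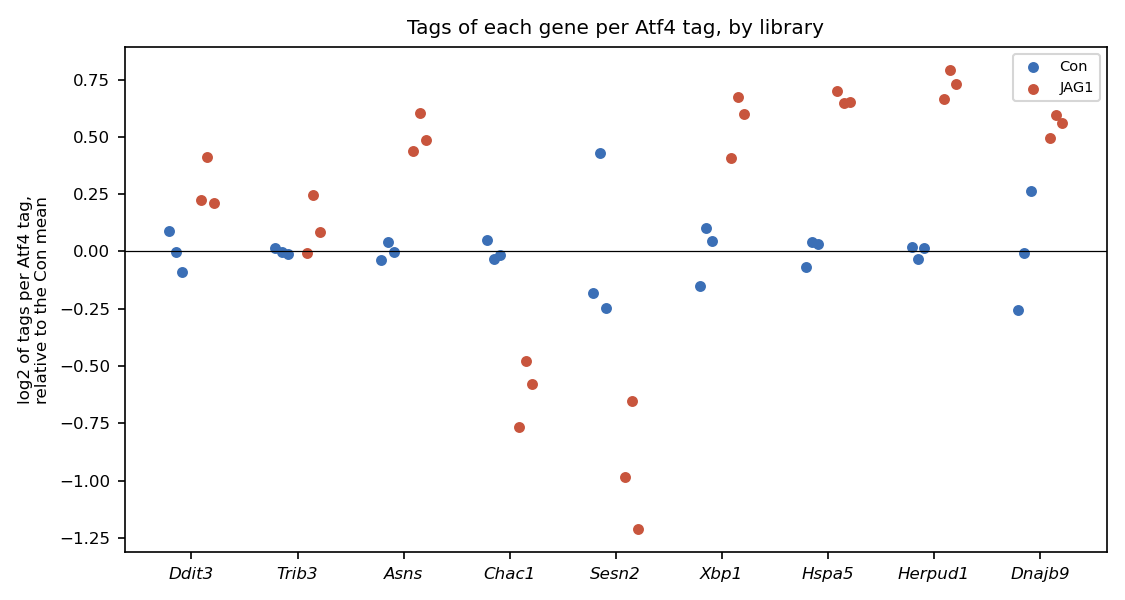
Tags of each gene per Atf4 tag in each library, as log2 relative to the control mean (blue, control; red, JAG1-overexpressing). The denominator, Atf4, was itself lower in JAG1-overexpressing libraries. The red points of Hspa5 and Herpud1 stand above 0.6 and those of Chac1 below -0.4, with no overlap with control, while those of Trib3 overlap control.

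Further genes of the pathway were taken from 9 lists written from general knowledge, which hold 152 genes, none of them among the 10. Of the 146 tested, 38 were higher, 38 were lower and 70 were not called. Both shares are near those of all tested genes, 27.4% and 27.7%. The lists differed in direction, and their counts and medians are given as a description.

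The list of the sensors of ER stress and the proteases that activate them held 8 tested genes, of which 5 were higher and 0 lower, and the median of their log2 fold changes was 0.36. Atf6, a sensor that becomes a transcription factor once cleaved, rose from 31.7 to 91.3 CPM (log2 fold change 1.52, SE 0.093, adjusted p = 1.34e-07). Its relative Atf6b rose from 105.7 to 147.9 CPM (0.48, SE 0.058). Mbtps1 and Mbtps2, the proteases that cleave ATF6, had log2 fold changes of 0.14 (SE 0.048) and 0.42 (SE 0.11), both called higher. Eif2ak3, which encodes PERK, went from 14.96 to 18.28 CPM and was not called (0.29, SE 0.13, adjusted p = 0.0846), and neither was Ern1, at 0.538 and 0.847 CPM. The number higher was 3 without control library 2, without JAG1-overexpressing library 3 and under upper-quartile normalization.

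Among the 14 genes of eIF2α kinases, phosphatase subunits, eIF2 and eIF2B, 2 were higher and 2 lower, with a median of 0.05 (0.0196 without control library 3). The lower genes were kinases, Eif2ak2, which senses double-stranded RNA (log2 fold change -0.33, SE 0.087, adjusted p = 0.008), and Eif2ak4, the sensor of uncharged tRNA (-0.31, SE 0.11, adjusted p = 0.0285). The higher genes were the eIF2 subunits Eif2s1 (0.18, SE 0.065) and Eif2s3x (0.22, SE 0.071). Ppp1r15a, the inducible phosphatase subunit that ends the response, had 19.37 and 18.09 CPM and was not called. These counts were not stable: the number higher was 0 without control library 1, 1 without control library 2 or any single JAG1-overexpressing library, and 5 without control library 3, and the number lower was 1 without control library 2 or JAG1-overexpressing library 2 or 3. Across the other settings, the number higher went from 1 under upper-quartile normalization to 4 with no filter or with the replicate block, and the number lower from 1 with DESeq2 to 4 under upper-quartile normalization.

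The list of transcription factor partners and stress-induced targets of ATF4 and CHOP held 16 tested genes, of which 8 were lower and 3 higher (median -0.30). None of them is on chromosome 15 or 19. The largest falls at 10 CPM or more were those of Bbc3, which encodes the death-promoting BCL2 relative PUMA and also answers to p53 (from 40.67 to 21.72 CPM, log2 fold change -0.91, SE 0.075), and of Ddit4, an inhibitor of mTORC1 (from 105.7 to 61.53 CPM, -0.78, SE 0.076). Higher were Cebpb, from 49.04 to 90.15 CPM (0.88, SE 0.20), and Cebpg, from 50.57 to 58.98 CPM (0.22, SE 0.069), both of which encode partners that bind DNA with ATF4. The stress-induced factors Atf3, at 1.27 and 0.894 CPM, and Atf5, at 268.6 and 253.4 CPM, were not called. The number higher was 1 without control library 1 or 2 or without JAG1-overexpressing library 3.

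The amino acid genes that ATF4 controls were divided. Of the 12 tested genes of amino acid and one-carbon synthesis, 5 were higher and 4 lower, with a median of 0.17. Without control library 1 the median was 0.0749. At a mean of 10 CPM or more, the leading rises were those of Got1, an aspartate aminotransferase (log2 fold change 0.88, SE 0.064), and Psat1, an enzyme of serine synthesis (0.60, SE 0.049), both on chromosome 19, whose median was 0.61. The leading falls at that level were Gpt2, an alanine aminotransferase (-0.37, SE 0.083), and Aldh1l2, a mitochondrial folate enzyme (-0.25, SE 0.095). Without the genes of chromosomes 15 and 19, an alternative added after the values were seen, 2 of 9 were higher and 4 lower, and the median was -0.13. The number lower was 1 without control library 2 or JAG1-overexpressing library 1 or 3, and 2 without JAG1-overexpressing library 2 or with library size alone.

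Of the 10 amino acid transporters, 6 were lower and 2 higher (median -0.30). Slc6a9, a glycine transporter, went from 53.19 to 25.25 CPM (log2 fold change -1.08, SE 0.083), and Slc38a2, a glutamine and alanine transporter on chromosome 15, from 233 to 132.6 CPM (-0.81, SE 0.056). Slc7a5, the light chain of the large neutral amino acid transporter LAT1, rose from 93.81 to 128.3 CPM (0.45, SE 0.071), and the arginine and lysine transporter Slc7a1 rose from 150.1 to 185.2 CPM (0.30, SE 0.060). Without chromosomes 15 and 19, 4 of 7 were lower and 2 higher. The cystine transporter Slc7a11 (-0.20, adjusted p = 0.0575) was not called.

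Of the 20 cytosolic tRNA synthetases, 8 were lower and 5 higher, all by less than 1.5-fold (median -0.08, and -0.0419 without JAG1-overexpressing library 1). Aars had the largest fall (log2 fold change -0.49, SE 0.061), followed by Tars on chromosome 15 (-0.35, SE 0.056). Hars (0.36, SE 0.052) and Farsb (0.27, SE 0.049) had the largest rises. The number lower was 5 without control library 1 or 2 or JAG1-overexpressing library 3, and the number higher was 3 without JAG1-overexpressing library 1.

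Of the 21 chaperones and folding enzymes of the ER, 6 were higher, 4 lower and 11 not called, with a median of 0.07. The median was 0.0226 without control library 1 and 0.105 without control library 2. Sdf2l1, a partner of BiP, rose from 14.86 to 24.09 CPM (log2 fold change 0.70, SE 0.13), and Dnajc3, an ER J protein, from 65.87 to 88.16 CPM (0.42, SE 0.073). Uggt1, which marks misfolded glycoproteins for another round of folding, went from 334.5 to 268.1 CPM (-0.32, SE 0.077), and P4hb, a protein disulfide isomerase, from 611.6 to 522.7 CPM (-0.23, SE 0.051). Hsp90b1 (GRP94) and Calr, the abundant chaperones that usually rise with BiP in ER stress, had log2 fold changes of 0.07 (adjusted p = 0.363) and -0.0068 (adjusted p = 0.922). The number higher was 10 without control library 3, and the number lower was 2 without control library 2.

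Of the 18 tested genes of ER-associated degradation, the list nearest to Herpud1, 6 were higher and 2 lower, with a median of 0.13. Syvn1, the ubiquitin ligase HRD1, rose from 41.77 to 79.91 CPM (log2 fold change 0.94, SE 0.089) and is on chromosome 19. Edem1, which hands misfolded glycoproteins to degradation, rose from 24.11 to 32.04 CPM (0.41, SE 0.13). Derl1, a channel component on chromosome 15, went from 98.58 to 70.97 CPM (-0.48, SE 0.073), and the lectin gene Os9 from 32.23 to 26.45 CPM (-0.29, SE 0.082). The number lower was 1 without JAG1-overexpressing library 1 or 3, or without the genes of chromosomes 15 and 19. Of the 28 genes of the translocon and of secretion that XBP1 is known to control, 4 were higher and 4 lower, among them Sec63 (0.50, SE 0.053), Ssr3 (0.32, SE 0.070), Srp72 (-0.26, SE 0.052) and Sec61b (-0.19, SE 0.053). In the translocon list the number higher was 8 without control library 3 and 7 with library size alone or with the replicate block.

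**Figure D5:**
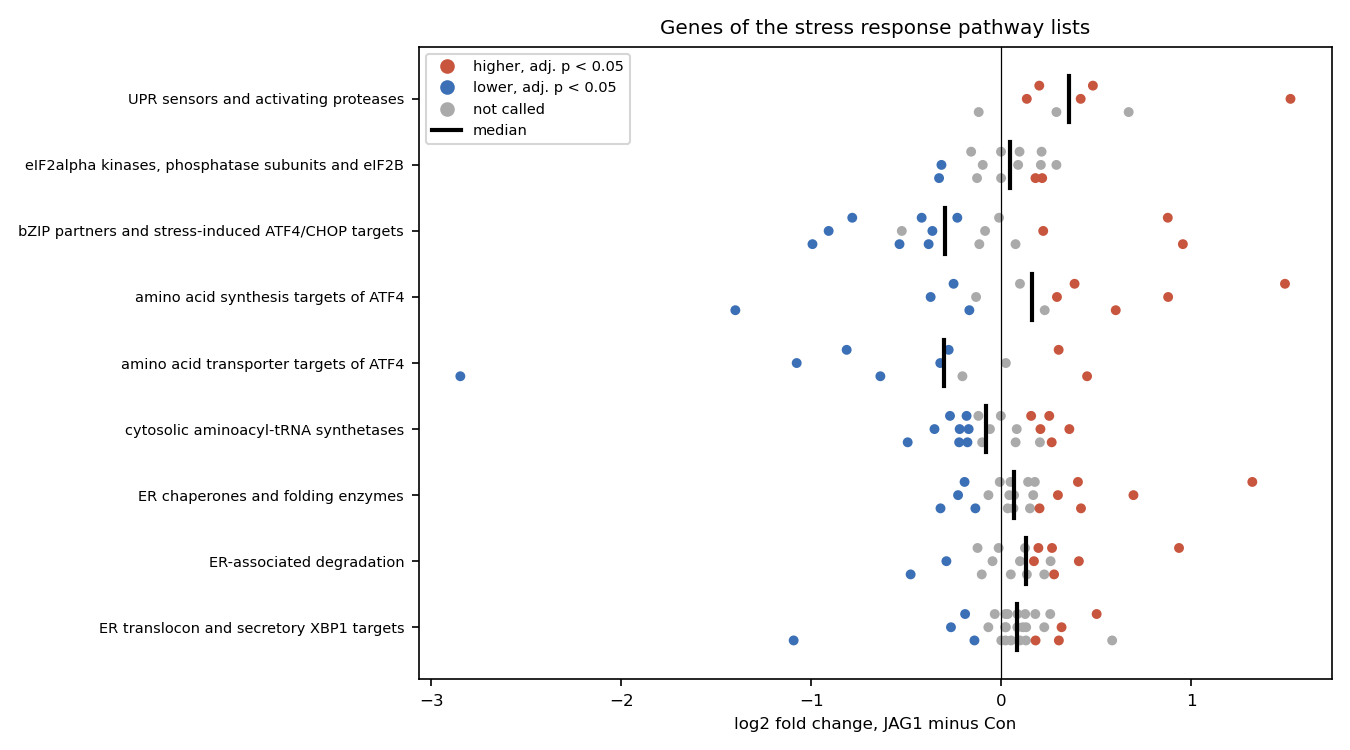
Log2 fold change, JAG1-overexpressing minus control, of each tested gene of the 9 pathway lists (points, red higher, blue lower, grey not called; spread vertically for legibility) with the median of each list (black bar). The bar stands at 0.36 for the sensors and at -0.30 both for the stress-induced ATF4 and CHOP targets and for the transporters.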

How the data were processed

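Per the labels, RNA of 6 libraries, 3 per group, was sequenced by the QuantSeq 3′ method. For each library and gene, the authors deposited raw read counts and log2 normalized values. The submitters' processing notes name Bowtie2, bedtools, edgeR and the builds GRCm38 and mm10, without versions; strand use and annotation are not given in the sources used here. Counts were analysed in R 4.3.3 with edgeR 4.0.16: filterByExpr (minimum count 10) left 11712 of 23282 rows, followed by TMM normalization and the quasi-likelihood test with Benjamini-Hochberg adjustment over all tested genes (threshold 0.05). SEs were derived from the F statistic. Tested on simulated data for this comparison (11712 genes), the procedure recovered 88% of genes changed by 1 on the log2 scale and 76% of those changed by 0.585, and 4.65% of its calls were false. The simulation changed only 100 genes by each size, as many up as down, and shifted no chromosome as a whole. In the data 55.1% of tested genes were called, so that these rates need not hold there. Alternatives were DESeq2 1.42.0, library size alone, upper-quartile scaling, other filters, limma 3.58.1 (voom, and on the deposited log2 values), a replicate block, and each library left out. Symbols were matched to RefSeq of GRCm38.p6 (22059 by symbol, 1090 by synonym); overlaps came from GENCODE M21.

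Named genes were the 10, Jag1 and, per pathway list, the 2 largest rises and 2 largest falls among called genes at a mean level of 10 CPM or more; per marker list, the most abundant gene and those at 3 counts or fewer; and the 5 genes closest to Atf4, of which 1 is not reported here. Mars, Mbtps1, Mbtps2, Eif2ak3, Ern1, Ppp1r15a, Atf3, Atf5, Slc7a11, Hsp90b1, Calr, Hspa1b, Sox9, Gja1, Aldh1l1, S100b, Aldoc, Col1a2, Pdgfrb, Map2, Cx3cr1, Kdelr3, Klhl24, Gdf15, Pycr1, Cth, Ero1lb and Slc7a3 were added once their values were known. The members and lists were chosen with earlier results of these data known. Libraries of a group differed by more than counting noise, the smallest chi-square over its degrees of freedom being 3.76, and none was a copy.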

Additional observations from a re-analysis of the deposited data

How the results depend on the processing

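Across 14 alternative settings, Atf4, Trib3, Chac1, Sesn2 and Herpud1 kept their direction and their call. The rise of Hspa5 lost its call under upper-quartile normalization (0.13, adjusted p = 0.0783) and with limma on the deposited log2 values (0.15, adjusted p = 0.0627), which leaves 1 of the 10 genes higher in each. With libraries left out in turn, Hspa5 ranged from 0.11 to 0.22 and the number of the 10 genes higher from 1 to 2. It lost its call without control library 2 (adjusted p = 0.103) or 3 (0.0531) and without JAG1-overexpressing library 1 (0.173) or 3 (0.12). Ddit3 ranged from -0.30 to -0.15 and lost its call without JAG1-overexpressing library 3 (-0.21, adjusted p = 0.0571). The causes were not tested. The genes not called had no stable sign: Asns was 0.0104 with library size alone and between -0.0254 and 0.0039 with libraries left out, Xbp1 ranged from -0.0030 to 0.0902 and Dnajb9 from -0.0689 to 0.151. Relative to the median of chromosome 15, the log2 fold change of Atf4 was 0.0214 instead of -0.51.

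A limit of 1.5-fold left 1395 genes higher and 1711 lower over all, 0 and 2 of the 10, and 9 and 9 of the pathway lists. Leaving out chromosomes 15 and 19 gave 34 higher and 33 lower of 135 pathway genes. Leaving out a library gave between 27 and 46 higher and between 26 and 36 lower pathway genes. Upper-quartile normalization called 2980 genes higher and 3460 lower, where the test used here called 3211 and 3247. The main test did not pair the libraries by replicate number. Same-numbered libraries correlated in their deviations with r = 0.208, 0.0571 and 0.138. Of the 6 libraries, 5 correlated best with their own number, so that some pairing is possible. With the replicate block, 3380 genes were higher and 3331 lower, and no call among the 10 changed. Depth limits Sesn2 and Dnajb9 most. Fold changes were set beside chromosome medians, and no cause was tested.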

Other observations

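Genes with at least 10 CPM whose pattern over the 6 libraries was near to that of Atf4, by the root mean square difference of centred log2 CPM among 7808 genes, included Tef (0.0272), Maf1 (0.0326), Ube2f (0.0331) and Ing4 (0.0343). Tef and Maf1 are on chromosome 15 with Atf4, and Ube2f and Ing4 are on chromosomes 1 and 6. Tef, a transcription factor of the PAR bZIP family, went from 262.9 ± 13.5 to 182.9 ± 7.27 CPM (SD, n = 3 each).

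Heat shock genes, which answer to HSF1 and not to the ER sensors, were a further list. Of 11 tested, 2 were higher and 4 lower, and the median of the log2 fold changes was -0.05 (-0.0221 without control library 1). The number higher was 1 without control library 2 or JAG1-overexpressing library 1 or 3, and the number lower was 2 without control library 2 or 3 or JAG1-overexpressing library 2 or 3. Hspa1b, an inducible HSP70 gene, had 11, 8 and 5 counts in control and 73, 36 and 58 counts in JAG1-overexpressing libraries (log2 fold change 2.95, SE 0.31, adjusted p = 1.17e-05); its tags may be shared with its near-identical copy Hspa1a, so that this value is uncertain. Bag3, a partner of HSP70, rose from 125.3 to 152 CPM (0.28, SE 0.094). Hsph1 (-0.29, SE 0.063) and Hsp90aa1, which went from 1600 to 1310 CPM (-0.29, SE 0.067), had the largest falls at 10 CPM or more, and Hsp90ab1 was the most abundant.

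Among called pathway genes with a mean level under 10 CPM, the arginine transporter Slc7a3 had 30, 19 and 27 counts in control and 5, 3 and 1 counts in JAG1-overexpressing libraries, so that 2 of these 3 libraries were at or under the floor of 3 counts and no fold is given. Also called lower were Klhl24, an ATF4 and CHOP target of the list, from 10.27 to 5.09 CPM (-0.99, SE 0.16), Pycr1, an enzyme of proline synthesis, from 0.952 to 0.374 CPM (-1.40, SE 0.47, with 4, 9 and 5 counts in JAG1-overexpressing libraries), and Kdelr3, a receptor that returns chaperones to the ER, from 11.45 to 5.32 CPM (-1.09, SE 0.14), which is on chromosome 15. Called higher were Gdf15, a stress-induced cytokine, from 2.28 to 4.45 CPM (0.96, SE 0.35, adjusted p = 0.0382), Cth, an enzyme that makes cysteine, from 2.99 to 8.38 CPM (1.495, SE 0.19), and Ero1lb, an ER oxidase, from 0.433 to 1.12 CPM (1.32, SE 0.41). The groups of Gdf15 overlapped, with 1.09, 1.88 and 3.87 CPM in control and 3.94, 5.57 and 3.83 CPM in JAG1-overexpressing libraries.

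Some defining markers of other cell types were at the floor, and others were not. Aif1, P2ry12 and Itgam (microglia), Rbfox3, Snap25, Syt1 and Nefl (neurons), Olig1, Olig2, Cspg4, Mbp, Mog and Sox10 (oligodendrocyte lineage), Cdh5, Cldn5, Tek and Kdr (endothelial cells) and Lum (fibroblasts) had at most 3 counts in every library. The most abundant marker of each list was Tmem119, from 2.24 to 0.103 CPM, Tubb3, from 78.15 to 8.40 CPM, Pdgfra, from 3.15 to 3.96 CPM, Col1a1, from 236 to 163.8 CPM, and Pecam1, with at most 4 counts. Cx3cr1, the other microglial marker tested, was called higher (from 0.713 to 1.26 CPM). The summed level of the 5 fibroblast markers was 323, 323 and 325 CPM in control and 251, 257 and 214 CPM in JAG1-overexpressing libraries, of which 3 were lower, among them Pdgfrb (from 82.22 to 26.08 CPM), and Col1a2 was higher (from 3.35 to 50.72 CPM). The summed level of the 6 neuronal markers was 96.9, 105 and 107 CPM against 59.5, 58.4 and 61.4 CPM. In that list Tubb3 was lower while Map2, the other marker tested, was higher (from 25.08 to 51.31 CPM, log2 fold change 1.03, adjusted p = 2.78e-07). The 12 astrocyte markers summed to 3180, 3490 and 3670 CPM against 3290, 3360 and 3340 CPM, most of which was Vim, at 2860, 3150 and 3300 CPM against 3170, 3250 and 3220 CPM, so that the sum does not show the falls of the 5 markers called lower. Their part in the changes of the stress genes was not tested.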
